A study of Mus musculus with 6 samples.

Results

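Ribosome biogenesis and RNA polymerase I (Pol I) genes were examined in regulatory T (Treg) cells of the neonatal liver and spleen. The members are 48 gene symbols for Pol I subunits and factors, small nucleolar ribonucleoprotein (snoRNP) proteins and nucleolar processing factors. Of these, 47 were matched among the 23366 gene symbols of the count table, and Noc2l is not analysed here. All 47 passed the filter on low counts, which left 11716 genes.

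The libraries hold RNA of CD4+GFP+ Treg cells purified by flow cytometry from liver (n = 3) and from spleen (n = 3) of Foxp3GFP knock-in mice at 12 days of age. Both groups carry the knock-in, a Foxp3 allele that reports by green fluorescence; Foxp3 is the lineage factor of Treg cells. The sources used here do not give the strain, the sex or the number of animals behind a library, and do not say whether animals were pooled. The p-values therefore describe the spread between these 6 libraries, which may be technical. The members were put together with the liver against spleen results of these same libraries known. Their levels and differences between the tissues are therefore given as a description, with no test that supports the choice.

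Ribosomes are built in the nucleolus, where Pol I transcribes the long precursor of the ribosomal RNAs (rRNA). snoRNPs guide methylation and pseudouridylation of the precursor, and a large set of assembly factors fold, cut and trim it together with ribosomal proteins into a small and a large subunit. In T cells the pathway is known to be switched on during activation and growth, with the transcription factor Myc as a main driver.

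Of the 47 members, 18 were lower in liver Treg cells than in spleen Treg cells, 0 were higher and 29 did not pass. Over all genes tested 6.9% were lower and 9.28% higher, 16.2% in either direction. The fitted log2 fold change (liver minus spleen) was below 0 for 47 of 47 members, with a median of -0.45, against a median of -0.01 over all 11716 genes tested, of which 50.7% were below 0. The largest difference was that of Mdn1, at -1.04, and the smallest that of Ddx10, at -0.03. The members held 0.342%, 0.341% and 0.356% of the counts in genes of liver 1, liver 2 and liver 3, against 0.452%, 0.455% and 0.448% in spleen 1, spleen 2 and spleen 3. Their summed level was 3497 ± 105 CPM (counts scaled to the TMM-adjusted library total) in liver, against 4487 ± 164 CPM in spleen (SD, n = 3 each), a ratio of 0.779. The liver and spleen libraries did not overlap in this sum.

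These calls are from edgeR's quasi-likelihood test at an adjusted p below 0.05 over all genes. All liver libraries lay below all spleen libraries for 24 members, against 15.2% of all genes tested, and the reverse held for 0 members, against 17.7%. The number of members called was 10 without liver 2, 7 without spleen 2, 11 without spleen 3 and 31 with limma-voom. Of all genes tested, 4.79%, 4.07%, 4.73% and 10.6% were lower in these fits. The share was 5.02% without liver 1 and 5.82% without liver 3, and these shares also stand beside the counts by role and list below. The 18 members called had log2 fold changes between -1.04 and -0.32, and 1 of the 47 members reached a difference of 1 on the log2 scale.

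**Figure D1:**
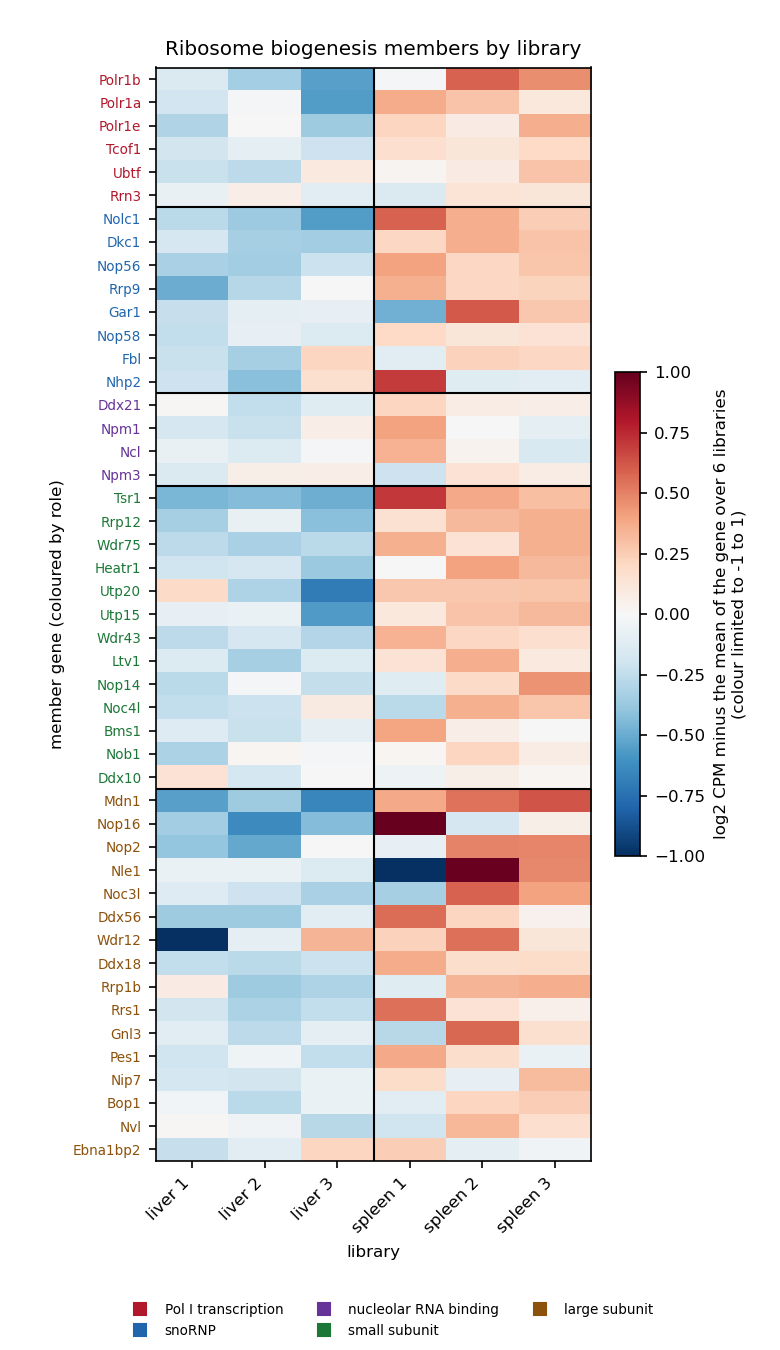
Heat map of 47 members (rows, grouped by role and ordered by fold change) in 3 liver and 3 spleen libraries (columns). Colour gives log2 CPM minus the mean of the gene over 6 libraries; most liver cells are blue and most spleen cells red, with exceptions such as Nle1 and Gar1, which are blue in spleen 1.

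Depth and purity set limits on these values. Liver 1 held 8437055 counts in genes, the other liver libraries 10887092 and 10951720, and the spleen libraries 1199410, 11408960 and 11358446, so spleen 1 was the shallowest. In spleen 1 a member had between 12 and 871 counts (median 57), and in the other libraries at least 50. Spleen 1 lay above both other spleen libraries for 19 members and below both for 22, shares of 40.4% and 46.8%, against 40.7% and 44.9% of all genes tested. Without spleen 1, 24 members were called, of which 17 were among the 18 called with all libraries. Of all genes tested, 8.19% were lower without spleen 1. Ddx56 was the call that ended without it (log2 fold change -0.39, edgeR adjusted p = 0.0572), and Bop1, Gnl3, Rrp1b, Nle1, Noc4l, Nop14 and Gar1 were the 7 gained. Without spleen 1 the ratio of the summed levels was 0.796 after scaling the remaining libraries anew.

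Foxp3 averaged 1266 ± 58.4 CPM in liver, compared with 1160 ± 57.6 CPM in spleen (SD, n = 3 each; log2 fold change 0.13 ± 0.09 (SE), edgeR adjusted p = 0.384), and all 7 Treg and T cell markers were detected in both tissues. Of these 7, 3 passed edgeR's test. The inhibitory receptor gene Ctla4 had a log2 fold change of 0.89 (edgeR adjusted p = 5e-05) and Ikzf2, which encodes Helios, one of 0.35 (edgeR adjusted p = 0.0241), while Il2ra, the interleukin receptor chain CD25, had one of -0.60 (edgeR adjusted p = 0.000171). Markers of other cell types also differed between the tissues. Erythroid markers summed to between 116 and 139 CPM in liver and between 349 and 445 CPM in spleen. By edgeR's test 9 of 10 tested genes were lower in liver. The log2 fold changes of these 10 ran from -9.25 to -0.19 with a median of -4.37, while a sum follows its most abundant genes. The red cell anion exchanger gene Slc4a1 was at 0 in liver 1 and liver 3, and the globin genes Hba-a1 and Hba-a2 at 0 in every library. The sources do not say how reads that match several places were counted, so the 0 values of Hba-a1 and Hba-a2 are uncertain. The globin gene Beta-s (Hbb-bs) was at 5.65, 4.77 and 7.50 CPM in liver and at 129, 62.0 and 77.8 CPM in spleen. Granulocyte markers summed to between 272 and 309 CPM in liver and between 503 and 856 CPM in spleen (11 of 12 lower in liver). Macrophage markers summed to between 77.1 and 87.4 CPM in liver and between 146 and 229 CPM in spleen (9 of 10 lower). The median log2 fold change was -1.22 for the granulocyte markers and -3.13 for the macrophage markers, so the macrophage median lay further from 0 than the sums show. B cell markers summed to between 150 and 187 CPM in liver and between 232 and 329 CPM in spleen (4 of 10 lower, median log2 fold change -0.49). NK and CD8 markers summed to between 103 and 132 CPM in liver and between 46.2 and 55.9 CPM in spleen, with 5 of 9 higher and 1 lower in liver and Ncr1 at 0 in spleen 1 and spleen 3. Hepatocyte markers summed to between 14.5 and 21.9 CPM in liver and between 18.2 and 25.0 CPM in spleen (1 of 3 higher and 1 lower), with Alb at 0 in every spleen library. Trf was the hepatocyte marker lower in liver, with means of 9.97 CPM in liver and 17.2 CPM in spleen. The part of these cells in the levels of the members was not tested. In bulk libraries of this kind, fewer cells of a type and less RNA per cell cannot be told apart.

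Pol I transcription was represented by 6 members, of which 3 were called lower in liver (median log2 fold change -0.38), against 6.9% of all genes tested. Polr1a, the largest catalytic subunit of Pol I, was at 72.9, 82.3 and 56.7 CPM in liver and at 108, 102 and 89.8 CPM in spleen. The tissues did not overlap, and the log2 fold change was -0.48 ± 0.13 (SE). Polr1b, the second-largest subunit, had the largest difference of this group, at 30.7, 26.8 and 23.2 CPM in liver against 33.6, 51.0 and 46.8 CPM in spleen (-0.77 ± 0.17 (SE)). Its shallow library spleen 1 lay closest to the liver libraries, though still above them. Polr1e, a subunit of the heterodimer that binds the core enzyme, was at 17.4, 21.5 and 16.8 CPM in liver and at 25.0, 22.7 and 27.7 CPM in spleen, a log2 fold change of -0.44 ± 0.19 (SE) that did not pass.

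The other members of this role are factors that act with the enzyme. Tcof1, which encodes treacle, a nucleolar cofactor of Pol I transcription, was at 204, 216 and 200 CPM in liver and at 259, 251 and 265 CPM in spleen. Its difference of -0.32 ± 0.09 (SE) was small, with no overlap between the tissues and a mean of 207 ± 8.26 CPM in liver, compared with 258 ± 7.44 CPM in spleen (SD, n = 3 each). Ubtf, the upstream binding factor that occupies active rRNA genes, was at 252, 244 and 313 CPM in liver and at 299, 311 and 357 CPM in spleen. Liver 3 overlapped with the spleen libraries, and its log2 fold change of -0.26 ± 0.11 (SE) did not pass. Rrn3, the initiation factor that links Pol I to its promoter, was at 37.9, 41.8 and 37.1 CPM in liver and at 36.2, 43.8 and 43.5 CPM in spleen. The tissues overlapped for Rrn3 (-0.12 ± 0.14 (SE)). Without spleen 2 none of these 6 genes was called and without liver 1 only Polr1b was, with log2 fold changes of -0.64 and -0.87 for Polr1b; Polr1a was also lost without liver 3 (-0.34) and Tcof1 without spleen 3 (-0.30).

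The snoRNP proteins comprise the box C/D group, which carries out rRNA methylation, the box H/ACA group, which carries out pseudouridylation, and the chaperone Nolc1. Of 8 members 4 were called lower in liver, with a median of -0.47, against 6.9% of all genes tested called lower. Nolc1, a nucleolar phosphoprotein that binds both snoRNP classes, was at 66.0, 62.1 and 54.1 CPM in liver and at 120, 102 and 94.3 CPM in spleen (-0.77 ± 0.12 (SE)). Nop56, a core box C/D protein, was at 109, 108 and 118 CPM in liver and at 181, 158 and 166 CPM in spleen (-0.58 ± 0.09 (SE)). Neither gene overlapped between the tissues, and both were called under each of the 14 other settings. The methyltransferase of the same particle, Fbl (fibrillarin), was at 86.1, 80.1 and 117 CPM in liver and at 93.8, 118 and 116 CPM in spleen. Liver 3 lay within the spleen range for Fbl, and its log2 fold change of -0.25 ± 0.14 (SE) did not pass.

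Dkc1, which encodes the pseudouridine synthase dyskerin, was at 29.2, 26.0 and 25.7 CPM in liver and at 37.9, 42.3 and 39.9 CPM in spleen (-0.59 ± 0.15 (SE)), with no overlap. Its partner Nhp2 was at 37.6, 32.6 and 48.4 CPM in liver and at 70.6, 39.8 and 40.3 CPM in spleen. The difference of Nhp2 (-0.22 ± 0.20 (SE)) came with a high value in spleen 1, and without that library it was -0.02. Of the remaining members, Rrp9, a protein of the snoRNP for small-subunit rRNA processing, was called (-0.49 ± 0.16 (SE)), and Gar1 (-0.45) and Nop58 (-0.30) were not. Without liver 2, spleen 2 or spleen 3 the count of snoRNP members called was 2. Dkc1 was among the calls lost there, at log2 fold changes of -0.55, -0.54 and -0.60. It was also lost with all libraries thinned to equal depth (-0.63).

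The nucleolar RNA-binding proteins hold both members with the highest levels per coding length, and none of the 4 was called. Relative to coding length, Npm1, which encodes the chaperone nucleophosmin, was at 419 CPM per kilobase in liver and 491 in spleen, and Ncl (nucleolin) at 263 in liver and 296 in spleen. The lowest levels per length in both tissues were those of the small-subunit factors Utp20, at 4.95 CPM per kilobase in liver and 7.00 in spleen, and Rrp12, at 6.80 in liver and 9.93 in spleen. On the CPM scale Ncl was at 559, 534 and 580 in liver and at 750, 602 and 529 in spleen. Npm1 was at 350, 338 and 414 CPM in liver and at 522, 396 and 371 CPM in spleen. For both genes spleen 1 was the highest library and the tissues overlapped, with spleen 3 of Ncl below every liver library. The log2 fold changes were -0.16 ± 0.11 (SE) for Ncl and -0.21 ± 0.12 (SE) for Npm1. Npm1 has processed copies in the genome and the sources do not say how reads that match several places were counted, so its level is uncertain.

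Ddx21, a nucleolar RNA helicase that binds rRNA genes and snoRNAs, was at 203, 170 and 186 CPM in liver and at 234, 212 and 211 CPM in spleen. Its libraries did not overlap, and its difference of -0.23 ± 0.10 (SE) did not pass. Npm3, a relative of nucleophosmin, was at 44.9, 51.7 and 51.9 CPM in liver and at 43.0, 54.9 and 52.1 CPM in spleen (-0.05 ± 0.14 (SE)), and its sign turned without liver 1 (0.013), without spleen 2 (0.018) and at equal depth (0.14). The summed level of these 4 genes was 1160 ± 69.2 CPM in liver, compared with 1326 ± 199 CPM in spleen (SD, n = 3 each), and the libraries overlapped. That of the 16 large-subunit members was 697 ± 8.05 CPM in liver, compared with 1007 ± 30.9 CPM in spleen, and that of the 13 small-subunit members was 563 ± 16.8 CPM in liver, compared with 745 ± 8.33 CPM in spleen, with no overlap in either role. The summed level of the Pol I members was 631 ± 16.4 CPM in liver, compared with 790 ± 36.3 CPM in spleen, and that of the snoRNP members 445 ± 32.5 CPM in liver, compared with 619 ± 20.9 CPM in spleen. At the scaling of all libraries, the liver to spleen ratio of the nucleolar RNA-binding sum was 0.875 with spleen 1 and 0.955 without it.

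**Figure D2:**
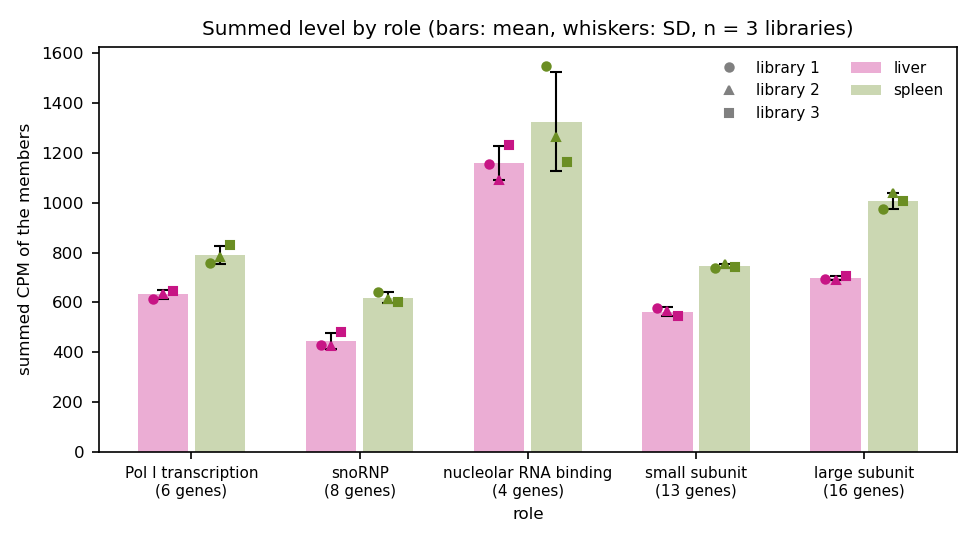
Summed CPM of the members by role (x axis) in liver and spleen libraries; bars give the mean of 3 libraries, whiskers the SD, and symbols the single libraries. The tissues are separated in each role except the nucleolar RNA-binding proteins, where liver 3 (1231 CPM) lies above spleen 3 (1164 CPM).

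Small-subunit assembly factors make up the processome that forms on the young precursor and the later factors that carry the particle to the cytoplasm. Of 13 members 6 were called lower in liver (median -0.47), or 46.2%, against 6.9% of all genes tested. For 9 of 13 all liver libraries lay below all spleen libraries, against 15.2% of all genes tested. Tsr1, a factor of the last cytoplasmic steps, was at 21.2, 21.5 and 20.7 CPM in liver and at 47.3, 37.8 and 35.8 CPM in spleen (-0.88 ± 0.16 (SE)). Its exons share 1159 bases with Srr on the opposite strand in the GENCODE annotation, so reads of the pair cannot be told apart without a stated strand setting. Rrp12, an export factor of pre-ribosomes, was at 25.3, 30.2 and 23.8 CPM in liver and at 35.3, 39.8 and 40.6 CPM in spleen (-0.57 ± 0.16 (SE)). Both separated the tissues.

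Wdr43, of the subcomplex that joins rRNA transcription to processing, was at 66.1, 70.6 and 64.6 CPM in liver and at 101, 91.6 and 89.1 CPM in spleen (-0.47 ± 0.11 (SE)). The other members of that subcomplex among these genes were called as well, Heatr1 at -0.53, Wdr75 at -0.56 and Utp15 at -0.49. Utp15 was near the threshold (edgeR adjusted p = 0.0462) and was called under 7 of the 14 other settings. Heatr1 was called under 13 of them and Wdr75 under 12. Bms1, a GTPase of the processome, was at 116, 108 and 118 CPM in liver and at 166, 133 and 126 CPM in spleen. It did not overlap between the tissues and did not pass (-0.27 ± 0.11 (SE)). The members that differed least were Ddx10, an RNA helicase, at 51.1, 41.1 and 46.3 CPM in liver against 44.8, 48.2 and 46.9 CPM in spleen (-0.03 ± 0.14 (SE)), and Nob1, the nuclease that makes the mature end of the small-subunit rRNA, at 30.8, 38.8 and 38.0 CPM in liver against 38.7, 44.5 and 40.3 CPM in spleen (-0.21 ± 0.15 (SE)). Without liver 2 the sign of Ddx10 turned (0.057).

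The remaining 4, Utp20 (-0.51), Ltv1 (-0.42), Nop14 (-0.41) and Noc4l (-0.33), did not pass. Utp20 ranged from 29.9 to 55.2 CPM in liver and from 58.4 to 58.8 CPM in spleen. The number of small-subunit members called was 3 without spleen 2 or spleen 3, and 4 without liver 2 or liver 3. Rrp12 was lost without liver 1 (-0.54), liver 3 (-0.50), spleen 2 (-0.55) or spleen 3 (-0.53), and at equal depth (-0.54).

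Large-subunit assembly factors were called lower in liver in 5 of 16 cases (31.2%, against 6.9% of all genes tested), with a median of -0.46. Mdn1 (midasin), a very large ATPase that strips assembly factors from the large-subunit precursor, was at 121, 139 and 113 CPM in liver and at 231, 258 and 273 CPM in spleen. The highest liver library lay below the lowest spleen library, and the log2 fold change was -1.04 ± 0.10 (SE), the largest of the members and called under each of the 14 other settings. Nle1, a WD-repeat partner of midasin known from yeast, was at 22.7, 22.7 and 21.7 CPM in liver and at 10.3, 47.3 and 33.2 CPM in spleen. Spleen 1, with 12 counts, stood apart from the other spleen libraries for Nle1. The log2 fold change was -0.62 ± 0.26 (SE) with all libraries, -0.85 without spleen 1, where it was called, and -0.20 without spleen 2.

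Nop16 had a difference of -0.89 ± 0.31 (SE), the next largest of the group, and it did not pass. Its level was 17.3, 14.2 and 16.3 CPM in liver and 63.7, 19.6 and 23.0 CPM in spleen, with spleen 1 far above the others. The difference was -0.42 without spleen 1, -1.26 without spleen 2 and -1.15 without spleen 3, and these last values passed the threshold. Pes1, which with Bop1 and Wdr12 forms the PeBoW complex of large-subunit maturation, was at 73.3, 81.9 and 71.0 CPM in liver and at 109, 94.9 and 80.4 CPM in spleen (-0.29 ± 0.12 (SE)). The tissues overlapped for Pes1, and none of the complex was called, with Bop1 at -0.28 and Wdr12 at -0.49. Wdr12, with 18 counts in spleen 1, ranged from 6.01 to 16.8 CPM in liver and from 14.4 to 19.4 CPM in spleen.

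Nvl, an ATPase of late nuclear maturation, was at 50.6, 49.1 and 41.5 CPM in liver and at 43.9, 63.4 and 56.7 CPM in spleen (-0.27 ± 0.14 (SE)). Ebna1bp2 was at 48.7, 52.9 and 66.3 CPM in liver and at 68.0, 53.8 and 55.9 CPM in spleen (-0.04 ± 0.15 (SE)), with a sign that turned without liver 1 (0.055), liver 2 (0.0044) or spleen 1 (0.033). The tissues overlapped for both genes. The other members called were the rRNA methyltransferase Nop2 (-0.67), Noc3l (-0.60), and the RNA helicases Ddx56 (-0.49) and Ddx18 (-0.46). Liver and spleen libraries overlapped for Nop2 and Noc3l, and spleen 1 of Noc3l lay slightly below every liver library. Noc3l was near the threshold (edgeR adjusted p = 0.0491) and was called under 7 of the 14 other settings. Rrs1 (-0.45), Rrp1b (-0.45), Gnl3 (-0.43), which encodes nucleostemin, and Nip7 (-0.28) did not pass. The number of large-subunit members called was 1 without liver 2, 2 without spleen 2 and 8 without spleen 1.

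**Figure D3:**
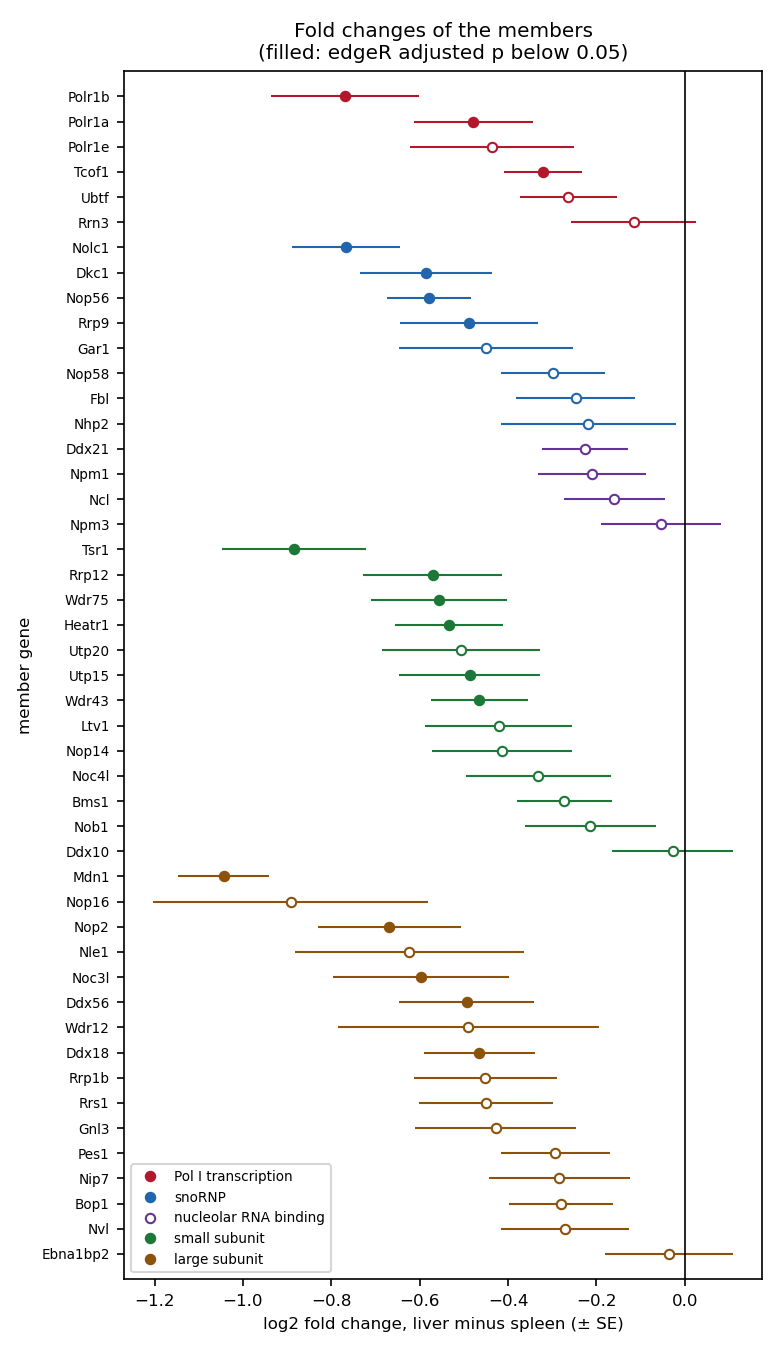
Log2 fold change (liver minus spleen, x axis) of 47 members (y axis) with its SE, coloured by role; filled points passed edgeR's threshold. All points lie below 0, from -1.04 for Mdn1 to -0.03 for Ddx10.

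The genes of the same pathway that are not members were read from lists of 148 symbols, of which 147 were matched and 146 tested. By edgeR's test 19 of these were lower in liver, 4 were higher and 123 were not called, with a median log2 fold change of -0.15. The log2 fold change was below 0 for 104 of the 146, against 50.7% of all genes tested. The 13.0% lower compares with 6.9% of all genes tested and the 2.74% higher with 9.28%. All liver libraries lay below all spleen libraries for 40 of the 146 and above them for 10, against 15.2% and 17.7% of all genes tested. The number lower was 7 without liver 1 or spleen 3, 4 without liver 2, 12 without liver 3 and 6 without spleen 2, and it was 33 with limma-voom and 5 at equal depth. The number higher was 2 without liver 1, spleen 2 or spleen 3.

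Of 54 other large-subunit factors 12 were lower in liver (22.2%, against 6.9% of all genes tested) and 0 higher (median -0.20). Mybbp1a, a nucleolar Myb-binding protein, averaged 140 ± 13.5 CPM in liver, compared with 246 ± 33.7 CPM in spleen (SD, n = 3 each; log2 fold change -0.79 ± 0.11 (SE), edgeR adjusted p = 5.61e-05). Rsl1d1 averaged 59.6 ± 7.01 CPM in liver, compared with 82.1 ± 4.58 CPM in spleen (-0.45 ± 0.12 (SE), edgeR adjusted p = 0.0167). That call was lost without liver 1, liver 2 or spleen 2 (edgeR adjusted p = 0.0675, 0.103 and 0.0923) and at equal depth (edgeR adjusted p = 0.147). The number of other large-subunit factors lower was 3 without liver 1 or spleen 3, 2 without liver 2 and 1 without spleen 2.

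Of 53 other small-subunit factors 7 were lower in liver and 1 was higher (median -0.13). These shares of 13.2% and 1.89% compare with 6.9% and 9.28% of all genes tested. Pwp2, a processome subunit, fell to 24.2 ± 2.15 CPM in liver, compared with 42.6 ± 2.21 CPM in spleen (-0.80 ± 0.15 (SE), edgeR adjusted p = 0.00119), and Bysl (bystin) to 15.4 ± 3.30 CPM, against 27.9 ± 1.68 CPM (-0.85 ± 0.20 (SE), edgeR adjusted p = 0.00577). The call of Bysl was lost at equal depth (-0.64, edgeR adjusted p = 0.2). Riok3, a kinase bound to late small-subunit precursors, was the one that was higher, at 172 ± 4.67 CPM in liver, compared with 130 ± 10.2 CPM in spleen (0.39 ± 0.09 (SE), edgeR adjusted p = 0.00777), a call lost without spleen 3 (edgeR adjusted p = 0.0652). The number lower was 4 without liver 1, spleen 2 or spleen 3, 2 without liver 2 and 3 without liver 3.

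None of the 9 other Pol I genes tested and none of the 13 other snoRNP and assembly genes tested passed, with medians of -0.17 and -0.22. Among the Pol I genes, the subunit gene Twistnb was at 25.1, 26.3 and 21.9 CPM in liver and at 35.3, 28.7 and 27.9 CPM in spleen, while Taf1b, of the promoter selectivity factor, was at 47.6, 50.6 and 51.5 CPM in liver and at 37.9, 38.8 and 37.9 CPM in spleen. Both were chosen after their values were seen, as genes whose tissues did not overlap in opposite directions. In the rRNA exosome and nuclease list 3 of 17 genes were higher in liver, 0 were lower and 14 did not pass (median -0.07). They were the exosome subunit Exosc8, at 69.7 ± 8.15 CPM in liver, compared with 45.3 ± 7.20 CPM in spleen (0.56 ± 0.14 (SE), edgeR adjusted p = 0.00825), the exonuclease Xrn2, at 281 ± 18.3 CPM in liver, compared with 220 ± 18.2 CPM in spleen (0.37 ± 0.10 (SE), edgeR adjusted p = 0.0128), and Eri1 (0.48). The exosome count was 1 without liver 1 or spleen 2, and Xrn2 was lost without liver 1, liver 2, spleen 2 or spleen 3 (edgeR adjusted p = 0.0714, 0.0698, 0.105 and 0.0769). At equal depth Xrn2 was lost as well (edgeR adjusted p = 0.0512). In the same list 1 gene was lower without spleen 2, at equal depth, and with DESeq2 size factors, upper-quartile scaling, the DESeq2 Wald test, the 5 CPM filter or TMM without pathway genes, and 2 were lower with limma-voom or no filter.

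The other nuclear polymerases were set beside Pol I by the same subunits. Polr2a and Polr2b, the largest subunits of Pol II, which makes messenger RNA, had log2 fold changes of 0.01 ± 0.10 and 0.09 ± 0.11 (SE), and the sign of Polr2a turned with several settings. Polr3a and Polr3b of Pol III, which makes transfer RNA and the small ribosomal RNA, had -0.10 ± 0.14 and -0.36 ± 0.14 (SE). None of these 4 passed, against -0.48 and -0.77 for Polr1a and Polr1b; whether the genes differ from each other in their fold change was not tested. Of the 7 Pol II subunits tested and the 5 shared subunits tested, 0 passed, with medians of 0.13 and 0.05. Of 21 Pol III subunits and factors 2 were lower (9.52%, against 6.9% of all genes tested) and 19 did not pass (median -0.14). They were Polr3e, at 32.6 ± 2.36 CPM in liver, compared with 53.6 ± 5.08 CPM in spleen (-0.69 ± 0.14 (SE), edgeR adjusted p = 0.00217), and Polr3d, at 14.2 ± 1.70 CPM in liver, compared with 22.7 ± 3.17 CPM in spleen (-0.63 ± 0.20 (SE), edgeR adjusted p = 0.0384). Polr3d was lost without liver 1, liver 2, spleen 2 or spleen 3 (edgeR adjusted p = 0.0507 to 0.171) and at equal depth (edgeR adjusted p = 0.366). Without spleen 1 the counts were 4 lower and 1 higher.

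**Figure D4:**
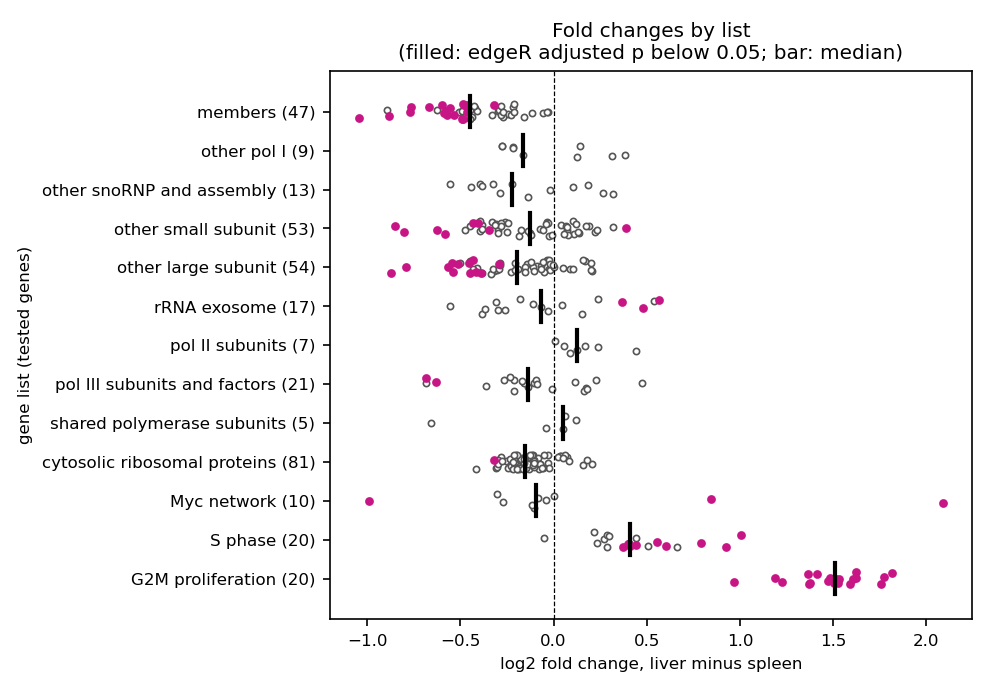
Log2 fold change (liver minus spleen, x axis) of each tested gene by list (y axis, with the number tested); filled points passed edgeR's threshold and black bars give medians. The members lie below 0 (median -0.45), the other ribosome assembly lists straddle it, and the proliferation genes of G2 phase and mitosis lie above it (median 1.51).

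The ribosomal proteins, the products that these factors assemble, showed small differences, mostly below 0. Of 81 cytosolic ribosomal protein genes tested 1 was lower in liver, Rpl31, at 443 ± 21.4 CPM in liver, compared with 555 ± 48.7 CPM in spleen (-0.32 ± 0.10 (SE), edgeR adjusted p = 0.0305), and 80 did not pass. Rpl31 was lost with any of the 6 libraries left out (edgeR adjusted p = 0.0557 to 0.122), and the count was 6 with no filter on low counts. The list median was -0.16, and 0.01 without spleen 1. With all libraries 71 of the 81 had log2 fold changes below 0, and the 1.23% called lower compares with 6.9% of all genes tested. Their summed level was between 58272 and 70720 CPM in liver and between 61274 and 82220 CPM in spleen, with the highest value in spleen 1.

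The proliferation genes that passed the test were all higher in liver, where 9.28% of all genes tested were higher. All 20 genes of a G2 phase and mitosis list were higher in liver (median 1.51), among them Cenpf (1.81 ± 0.12 (SE), edgeR adjusted p = 2.35e-08) and the spindle motor gene Kif11 (1.59 ± 0.11 (SE), edgeR adjusted p = 2.78e-08). Of 20 S phase genes 9 were higher and 11 did not pass (median 0.41), with Rrm2 at 124 ± 12.0 CPM in liver, compared with 68.7 ± 14.8 CPM in spleen (0.93 ± 0.13 (SE), edgeR adjusted p = 7.18e-05) and Uhrf1 at 114 ± 14.1 CPM in liver, compared with 77.4 ± 11.3 CPM in spleen (0.60 ± 0.12 (SE), edgeR adjusted p = 0.00215). The S phase count was 4 without spleen 2 and 4 at equal depth.

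Myc, a transcription factor known to activate ribosome biogenesis genes, was lower in liver, at 78.9, 72.6 and 65.3 CPM in liver against 120, 150 and 151 CPM in spleen. The tissues did not overlap, and the log2 fold change was -0.99 ± 0.11 (SE, edgeR adjusted p = 7.37e-06), close in size to that of Mdn1. In the Myc network list of 10 tested genes, Mxd3, which encodes a partner of Max that opposes Myc, was higher at 36.8 ± 5.23 CPM in liver, compared with 8.43 ± 0.713 CPM in spleen (2.09 ± 0.19 (SE), edgeR adjusted p = 8e-07). Mxi1, of the same family, was at 96.3 ± 11.0 CPM in liver, compared with 52.8 ± 5.77 CPM in spleen (0.85 ± 0.13 (SE), edgeR adjusted p = 0.00013), and the other 7 did not pass. Whether Myc has a part in the levels of the members was not tested.

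The promoters of the members were searched for CACGTG, the palindromic E-box that dimers of Myc and Max bind, because Myc differed with them. RefSeq promoter windows of GRCm38.p6, which run from 250 bases before to 50 bases after an annotated start, were found for 41 of the 47 members. The motif was present for 9 of the 41 members (22.0%), against 18.7% of 123 other pathway genes, 9.38% of 64 ribosomal protein genes, 12.0% of 8800 tested genes and 8.09% of all 27025 genes with a window. The stretches that hold it are given in the sense of the gene with the E-box in capitals, and they are shown because they are the motif matches among these genes.
Mdn1 (chr4:32657139-32657168, plus strand): caacgtgaattccttcacCACGTGtgtgtc
Nop2 (chr6:125131811-125131840, plus strand): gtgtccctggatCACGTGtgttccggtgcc
Ltv1 (chr10:13193092-13193121, minus strand): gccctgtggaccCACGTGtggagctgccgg
Utp20 (chr10:88826765-88826794, minus strand): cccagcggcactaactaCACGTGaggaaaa
Pes1 (chr11:3963965-3963994, plus strand): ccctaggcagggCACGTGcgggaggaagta
Tsr1 (chr11:74898092-74898121, plus strand): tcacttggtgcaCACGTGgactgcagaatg
Nle1 (chr11:82908355-82908384, minus strand): tcggttctcctcCACGTGgggacgcaggat
Rrn3 (chr16:13780472-13780501, plus strand): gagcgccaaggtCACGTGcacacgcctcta
Rrn3 (chr16:13780639-13780668, plus strand): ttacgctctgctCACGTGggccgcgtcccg
Wdr43 (chr17:71616220-71616249, plus strand): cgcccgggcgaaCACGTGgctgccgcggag

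Counting the start as base 1, the E-box began at base 39 in Mdn1, 38 in Utp20, 29 in Ltv1, 25 in Tsr1, 24 in Nle1, 18 in Wdr43 and 3 in Pes1, just inside the transcript. In Nop2 it began 60 bases before the start, and in Rrn3 215 and 48 bases before it. The 9 members with the motif had a median log2 fold change of -0.51 (4 called), and the 32 without it -0.44 (12 called). They include both the member with the largest difference, Mdn1, and one with little difference, Rrn3. The GC box GGGCGG, searched on both strands, was present for 78.0% of the 41 members and 69.1% of tested genes. The palindromic Nrf1 motif, searched as 1 fixed string, was in 0 of the 41 and in 2.55% of tested genes. A match describes the letters of a window and not binding.

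Genes that hold snoRNA genes made up a larger share of the members than of all genes tested. Their share among the other pathway genes and the ribosomal protein genes was not counted, so the feature may not be particular to the members. Of the 47 members, 7 hold annotated snoRNA genes within their bodies on the same strand in GENCODE M21 (14.9%), against 2.04% of 11649 tested genes with an annotation. They are Nop56 with 5, Nop58 with 4, Gnl3, Ncl and Wdr43 with 3 each, Tsr1 with 2 and Dkc1 with 1, so 21 in all. Of these 7, Nop56, Wdr43, Tsr1 and Dkc1 were called lower in liver and Nop58, Gnl3 and Ncl were not. The counts are of the host genes and not of the snoRNAs.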

How the data were processed

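The authors deposited unnormalized counts, 1 column for each of 6 libraries and 1 row per gene symbol. The submitters' processing notes name HISAT2 2.1, HTSeq 0.11 and mm9; the sources used here do not give the annotation, the strand setting or the handling of reads that match several places. Summary rows naming no gene (25.5% to 29.0% of each library's total) entered neither library sizes nor tests. Libraries were grouped by tissue label and numbered in accession order.

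Counts were filtered with filterByExpr, scaled by TMM and tested for liver minus spleen with the edgeR 4.0.16 quasi-likelihood test in R 4.3.3, with Benjamini-Hochberg adjustment over 11716 genes and a threshold of 0.05. CPM are relative to the TMM-scaled total; the SE is that implied by the F statistic; the common biological coefficient of variation was 0.129. The floor, 3 counts, corresponds to 2.58 CPM for spleen 1 and 0.256 to 0.361 CPM for the other libraries, and covers counting error only. The fit was tested on simulated counts. Pathway genes renamed since were matched through RefSeq synonyms, and Polr1f, Polr1g and Polr1h as Twistnb, Cd3eap and Znrd1. Coding lengths, exon overlaps and snoRNA genes came from GENCODE M21 (GRCm38) and promoters from RefSeq, and neither was joined to mm9 coordinates.

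The members and lists were chosen with earlier results of these data known. Library values are given for all Pol I members and, in each other role, for the 2 most abundant members and the 2 with the highest and lowest log2 fold change of those with at least 10 CPM in 1 tissue; other lists by the 2 smallest p in each direction with a call, plus Myc and Foxp3. Eri1, Twistnb, Taf1b and the catalytic subunits of Pol II and Pol III were chosen after their values were seen. The library values of Nle1, the ranges of Utp20 and Wdr12, and the values of Hba-a1, Hba-a2 and Ncr1 were also given outside this selection. Markers of granulocytes, macrophages and B cells were given as sums, counts and medians only. Alternatives were DESeq2 size factors, upper-quartile scaling, the DESeq2 1.42.0 Wald test, limma-voom (3.58.1) with quality weights, no filter, a filter of 5 CPM in 3 libraries, TMM without pathway genes, leaving out each library and, added after seeing the data, thinning to equal depth.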

Additional observations from a re-analysis of the deposited data

How the results depend on the processing

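The members' median log2 fold change (-0.45 with all libraries) ranged from -0.46 to -0.39 with a library left out, was -0.50 with upper-quartile scaling and -0.48 at equal depth, and between 45 and 47 of the 47 members stayed below 0 under each of the 14 settings. The ratio of the summed levels (0.779) ranged from 0.766 to 0.796 with a library left out and was lowest under another scaling with the upper quartile, at 0.756. The number of members called (18) was 7 to 24 with a library left out and 31 with limma-voom; 5 members (Mdn1, Nolc1, Nop56, Tsr1 and Wdr43) were called under every setting and 13 under none. Over all genes, 1087 were higher and 808 lower with all libraries, 722 to 1245 higher and 486 to 989 lower with a library left out, 1243 lower with limma-voom, and 618 higher and 423 lower at equal depth. Of the other pathway genes, 4 were higher and 19 lower with all libraries, 2 to 4 higher and 4 to 24 lower with a library left out, 33 lower with limma-voom and 5 lower at equal depth; with limma-voom 6 were higher. In the comparison lists together, 4 genes were lower with all libraries, 8 with upper-quartile scaling, 8 with limma-voom, 9 with no filter and 2 to 6 with a library left out.

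Signs turned for Npm3 (0.14 at equal depth, -0.11 to 0.018 with a library left out), Ebna1bp2 (-0.17 to 0.055 with a library left out) and Ddx10 (-0.10 to 0.057 with a library left out). They turned for Polr3a (0.074 at equal depth, -0.17 to 0.0095 with a library left out) and Polr2a (-0.0022 with DESeq2 size factors, -0.037 with upper-quartile scaling, -0.00030 with the DESeq2 Wald test, -0.00091 with the 5 CPM filter, -0.051 to 0.084 with a library left out). Beyond fewer samples or reads, the cause was not tested. Equal depth was chosen after seeing the data. No paired analysis was possible because the labels give the liver and spleen libraries no shared replicate numbers. Depth limits spleen 1 most, where 1 member had 12 counts.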
